A study of Mus musculus with 8 samples.

Results

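The long-chain acyl-CoA synthetases are the 5 mouse genes Acsl1, Acsl3, Acsl4, Acsl5 and Acsl6. They were followed in naive CD8+ T cells cultured for 24 h in RGX-104 at 2 µM or in DMSO. RGX-104 is a man-made ligand that activates the liver X receptors (LXR). The members were taken by symbol, 5 of the 41730 gene rows. The family was picked with the contrast between RGX-104 and DMSO in view, so levels and differences of its members are given as a description, with no test. The T cells were purified from mouse with a kit for untouched naive CD8+ cells, and the labels give no strain, age or genotype. There were 4 RGX-104 libraries (replicates 5 to 8) and 4 DMSO libraries (replicates 1 to 4). RNA was read near the 3′ end of transcripts, so that reads of a transcript do not grow in number with its length. Levels are therefore given in CPM, which set a gene's counts against the total of its library, with no division by length.

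Long-chain acyl-CoA synthetases join a free fatty acid to coenzyme A at the cost of ATP. The product, an acyl-CoA, is the form in which a fatty acid enters phospholipids, triglycerides and cholesterol esters, is imported into mitochondria for oxidation, or is elongated and desaturated. The paralogs differ in where they sit and which acids they prefer. LXR are nuclear receptors for oxidised sterols that pair with the retinoid X receptor and bind direct repeats of a hexamer spaced by 4 bases. Their known targets include sterol exporters and fatty acid synthesis genes.

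Naive CD8+ T cells had reads of 4 of the 5 synthetases. Acsl5 had the highest mean level in both groups, Acsl1 was low, and no read of Acsl6 was found. Acsl3 was the member that separated the groups, at 47.1 ± 17.1 CPM in RGX-104 and 15.7 ± 8.58 CPM in DMSO (mean ± SD, n = 4 each). In bulk RNA such as this, a change in the number of cells with a transcript and a change in its amount per cell cannot be told apart. Acsl1, Acsl4 and Acsl5 overlapped between the groups. No member passed the test across all genes: 0 of the 4 tested members were called by edgeR's quasi-likelihood test at an adjusted p under 0.05, where 0.11% of the 10037 genes tested were called. By direction edgeR called 0.0996% of all genes higher and 0.00996% lower. DESeq2 called 0 of 4 members, beside 0.329% of all genes (0.199% higher, 0.13% lower), and limma-voom 0 of 4, beside 0.139% (0.11% higher, 0.0299% lower). At an unadjusted edgeR p under 0.05 there was 1 of 4, Acsl3, beside 3.81% of all genes (1.98% higher, 1.82% lower). Since the family was picked on this contrast, nothing is read from these counts.

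The library totals lay between 16196217 and 28287445 counts. At least 1 count was found for 10442 to 10990 genes in the RGX-104 libraries and for 9772 to 10908 genes in the DMSO libraries, with DMSO replicates 1, 2 and 3 the lowest of the 8. From the zeros among low genes, the libraries were estimated to hold 182352 to 344257 apparent molecules, so that 1 molecule stands for 2.90 to 5.48 CPM. A level of a few CPM thus stands for about 1 molecule. DMSO replicates 1, 2 and 3 held 200534, 182352 and 211967 apparent molecules, fewer than any RGX-104 library (250375 to 344257). DMSO replicate 4 held 316834. The labelled cell type was checked on 15 genes of CD8 T cell identity, whose summed level was 6824 to 7492 CPM in RGX-104 and 6906 to 7199 CPM in DMSO. Cd8a stood at 739 ± 23.1 CPM in RGX-104 and 668 ± 33.8 CPM in DMSO, and Cd3e at 404 ± 26.4 CPM in RGX-104 and 376 ± 36.6 CPM in DMSO. The groups did not overlap for Cd8a (722 to 773 CPM in RGX-104, 627 to 703 CPM in DMSO) and overlapped for Cd3e. Neither gene was called by edgeR. Of the identity genes, Cd2 had 0 counts in every library.

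Acsl3 encodes the synthetase of the endoplasmic reticulum and of nascent lipid droplets. It lies on chromosome 1, chr1:78657825-78707743 on the plus strand of GRCm38 (ENSMUSG00000032883.15, protein coding). Its promoter is printed here because it holds a match to a repeat that is also found before Abca1, Srebf1 and Fasn, LXR targets that were called in these libraries. The 250 bases before the annotated start, chr1:78657575-78657824 (plus strand, from RefSeq, GRCm38.p6), read as follows, with the match in capitals.
Acsl3 promoter: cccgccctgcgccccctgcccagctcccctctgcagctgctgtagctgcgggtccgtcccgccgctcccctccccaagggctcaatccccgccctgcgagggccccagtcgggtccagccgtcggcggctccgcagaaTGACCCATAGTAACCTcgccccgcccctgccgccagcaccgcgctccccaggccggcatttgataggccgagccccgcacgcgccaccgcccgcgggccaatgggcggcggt

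The match lies on the minus strand, 112 to 97 bases before the start (chr1:78657713-78657728). Read 5′ to 3′ on the strand that carries it, it is set here beside the corresponding 16 bases of Abca1 (chr4:53159947-53159962, plus strand), Srebf1 (chr11:60210638-60210653, plus strand) and Fasn (chr11:120824757-120824772, plus strand). Capitals mark the fixed letters of the pattern searched, which is GGTTA, any 5 bases and then GGTCA.
Acsl3 match: aGGTTActatgGGTCA
Abca1 match: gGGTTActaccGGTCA
Srebf1 match: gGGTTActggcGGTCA
Fasn match: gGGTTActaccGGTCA
Counted from 1 at the 5′ end of the 16 bases, the Acsl3 match differs from those of Abca1 and Fasn by G1A, C10T and C11G, with 13 of 16 bases identical. It differs from that of Srebf1 by G1A, G9A, G10T and C11G, with 12 of 16 identical. The match stands 67 to 52 bases before the start of Abca1, 182 to 167 before that of Srebf1 and 225 to 210 before that of Fasn.

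The pattern was written after the Acsl3 and Abca1 windows had been seen, so its presence there is no finding. Searched on both strands in all 32851 RefSeq windows of 250 bases before and 50 after a start, it was found in 16 windows (0.0487%), which belong to 13 genes. Of these genes 7 were tested here: Abca1, Acsl3, Fasn, Haao, Prrg4, Srebf1 and Tmco4. Abca1, Srebf1 and Fasn were called higher and none was called lower. As the pattern came from such genes, nothing is read from that count. Among the 8 windows of the family (2 for Acsl1, 3 for Acsl6, 1 for each other member) the pattern was found only before Acsl3. The textbook form of the repeat, AGGTCA given again after any 4 bases, was in 5 of all windows (0.0152%) and in no window of the family. A degenerate form of the spaced repeat, with alternatives at 3 places of each half-site, was in 76 windows (0.231%). Of the family only Acsl3 held it, in the same bases as the match printed above. The windows of Abca1, Srebf1 and Fasn did not hold it. A match is a description of letters and does not show binding.

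The other promoters held other letters. The half-site AGGTCA was in 16.3% of all windows, and in the family only before Acsl6. The sterol element TCACNCCAC, a site type of SREBP factors, was in 1.24% of windows and in the family only before Acsl1. The E-box CACGTG was in 7.15% of windows and before no member. The Acsl3 window had 74.0% G and C and 33 CpG, and that of Acsl4 had 71.7% and 33 CpG, whereas the Acsl5 window had 53.0% and 9 CpG. The medians of all windows were 52.7% and 7 CpG. The Acsl5 window, chr19:55253119-55253418, lies inside the annotated gene span, which starts at 55251938 in GENCODE and at 55251861 in RefSeq. No Acsl5 window at the start of that span was available, so the bases there were neither searched nor measured.

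Acsl3 was measured at 64.6, 31.97, 59.0 and 32.8 CPM in RGX-104 replicates 5 to 8, against 5.24, 22.5, 12.1 and 22.9 CPM in DMSO replicates 1 to 4. The lowest RGX-104 library was above the highest DMSO library. Such a gap between the groups was found in 3.56% of all genes tested, with RGX-104 above in 2.2% and below in 1.35%. Within RGX-104, replicates 5 and 7 were high and replicates 6 and 8 were only slightly above the highest DMSO libraries. The log2 fold change was 1.57 ± 0.50 (SE), a fold of 2.96 (2.10 to 4.19 at 1 SE). In apparent molecules these levels correspond to 9.32 to 18.5 per library in RGX-104 and to 1.05 to 7.27 in DMSO. The lowest value, that of DMSO replicate 1, therefore stands for about 1 molecule.

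For scale, Lpcat3, an LXR target that puts polyunsaturated acyl-CoA into phospholipids, was at 110 ± 6.77 CPM in RGX-104 and 75.4 ± 16.9 CPM in DMSO. Its log2 fold change of 0.52 ± 0.23 (SE) was smaller than that of Acsl3 and its spread in RGX-104 narrower, and it was not called (edgeR adjusted p = 1.00). Mylip, a ubiquitin ligase and LXR target, had a log2 fold change close to that of Acsl3, 1.66 ± 0.18 (adjusted p = 3.41e-05), at 254 ± 21.4 CPM in RGX-104 and 79.2 ± 12.9 CPM in DMSO. Acsl3 was lower than Mylip in both groups, and its SE was larger. Abca1, the sterol exporter, stood far above both at 5.68 ± 0.65 (adjusted p = 8.64e-05), with 346 ± 34.8 CPM in RGX-104 and 6.61 ± 5.59 CPM in DMSO.

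**Figure D1:**
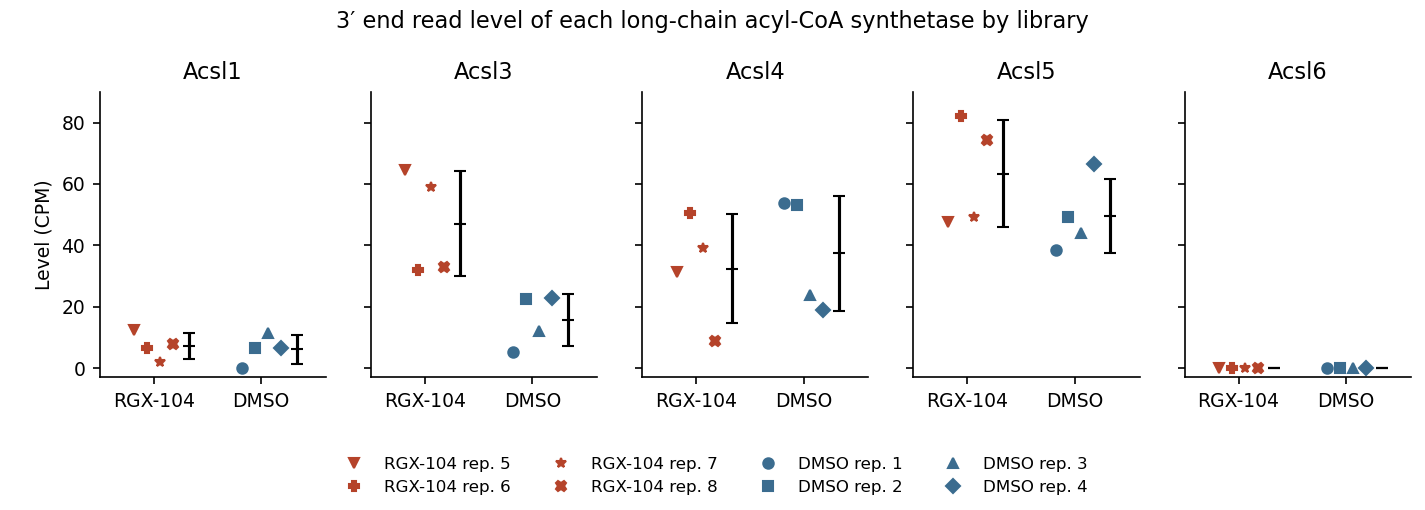
Level in CPM (y axis) of each synthetase in each library, RGX-104 at the left and DMSO at the right of each panel, with bars for the mean ± 1 SD (n = 4 each). For Acsl3 the RGX-104 libraries (31.97 to 64.6 CPM) lie above the DMSO libraries (5.24 to 22.9 CPM), and the other detected members overlap.

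Acsl3 overlaps a second protein-coding gene on the same strand, Utp14b, a retrogene copy of a ribosomal RNA processing factor that is needed for sperm formation in mice. The RefSeq gene spans have the same first base, whereas the annotated Utp14b transcripts start 213 and 615 bases after Acsl3. Utp14b ends within the second intron of Acsl3. Utp14b had 61, 252, 78 and 96 counts in RGX-104 replicates 5 to 8 (2.16, 11.8, 4.82 and 5.70 CPM), against 0 counts in all 4 DMSO libraries. Every RGX-104 library thus held reads counted to it and no DMSO library did. The counts do not show whether these reads came from Utp14b transcripts or from Acsl3 RNA that spans them, which was not tested. These reads correspond to 0.54 to 3.45 apparent molecules per library. A transcript at that level can be missed in a library, and DMSO replicates 1, 2 and 3 held the fewest apparent molecules. DMSO replicate 4 also had 0 counts of Utp14b, with 316834 apparent molecules. RGX-104 replicates 5, 6 and 7, which had Utp14b reads, held 250375, 291651 and 313647. Whether the number of molecules bears on the 0 counts was not tested. Utp14b was not called by edgeR (adjusted p = 1.00) or limma-voom (adjusted p = 0.697) and was called by DESeq2 (adjusted p = 0.00928), and no fold is given against a group at 0.

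The 2 annotated transcripts of Utp14b share 206 and 140 bases with the exons of the Acsl3 transcript they were compared with. Their last exons overlap no exon of it, and their 3′ ends lie 36.2 and 40.2 kb before that of Acsl3, as the exon map shows. Whether strand was used in counting was not stated in the labels, but both genes lie on the same strand. The other genes that overlap a member are long noncoding RNAs. Gm31050 (over Acsl1), Gm51635 (over Acsl3) and Gm12224 (over Acsl6) had 0 counts, and Gm31595 (over Acsl5) had 18 counts, all in RGX-104 replicate 6.

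**Figure D2:**
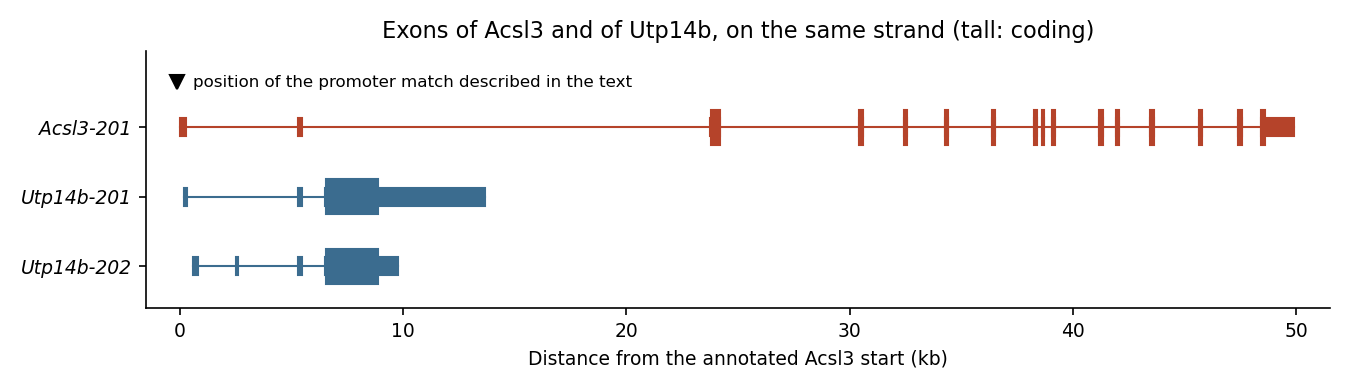
Exons of 1 transcript of Acsl3 and 2 of Utp14b against the distance from the annotated start of Acsl3 in kb, tall where coding, with a triangle at the promoter match. The Utp14b transcripts end 36.2 and 40.2 kb before the 3′ end of Acsl3, where 3′ end reads of Acsl3 would lie.

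Acsl5, which sits on the outer mitochondrial membrane and the endoplasmic reticulum and is best known from the intestine, was the most abundant member. It ranked 3187 by mean level among the 14589 genes with a count. Its levels were 47.6, 82.1, 49.3 and 74.4 CPM in RGX-104 replicates 5 to 8, against 38.6, 49.2, 44.2 and 66.4 CPM in DMSO replicates 1 to 4. The groups overlapped, with RGX-104 replicates 6 and 8 high. These are the RGX-104 libraries in which Acsl3 was low, and Acsl5 was lower in replicates 5 and 7, where Acsl3 was high. The DMSO libraries did not show this opposite order: both genes were lowest in replicate 1 and highest in replicate 4. The means were 63.3 ± 17.5 CPM in RGX-104 and 49.6 ± 12.01 CPM in DMSO, a log2 fold change of 0.33 ± 0.31 (SE). Acsl5 lies at chr19:55251938-55297720 on the plus strand (ENSMUSG00000024981.6).

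Acsl4 prefers arachidonic acid and other polyunsaturated acids and, with Lpcat3, loads them into phospholipids, a step that sensitises cells to ferroptosis. It was measured at 31.4, 50.5, 39.1 and 8.73 CPM in RGX-104 replicates 5 to 8, against 53.8, 53.1, 23.7 and 18.9 CPM in DMSO replicates 1 to 4. The groups overlapped over most of their range, and the lowest library of all was RGX-104 replicate 8. Means were 32.4 ± 17.7 CPM in RGX-104 and 37.4 ± 18.7 CPM in DMSO, a log2 fold change of -0.22 ± 0.51 (SE). The sign depended on the libraries used. The value was 0.09 without RGX-104 replicate 8, 0.011 without DMSO replicate 1, 0.61 with a covariate for genes detected and 0.74 against DMSO replicate 4 alone, so no direction can be given for Acsl4. The gene lies at chrX:142317993-142390535 on the minus strand (ENSMUSG00000031278.12).

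Acsl1, the main synthetase of liver, heart and fat and a target of the PPAR receptors, was low. It had 12.5, 6.47, 1.98 and 7.72 CPM in RGX-104 replicates 5 to 8, against 0, 6.56, 11.4 and 6.62 CPM in DMSO replicates 1 to 4. The groups overlapped throughout, and the highest levels correspond to 3.14 apparent molecules in RGX-104 and 2.41 in DMSO. The means were 7.18 ± 4.35 CPM in RGX-104 and 6.14 ± 4.67 CPM in DMSO, and the log2 fold change of 0.21 ± 1.55 (SE) carries an error several times its size. With limma-voom it was 1.81, and it was -0.20 without DMSO replicate 1 or RGX-104 replicate 5. Acsl1 lies at chr8:46471037-46536051 on the plus strand (ENSMUSG00000018796.13). Myeloid cells also express it, and the summed macrophage and monocyte markers were at 126 to 169 CPM in RGX-104 and 112 to 241 CPM in DMSO, with 3 of 11, Fcgr1, C1qa and C1qb, at 0 in all libraries. Their part in the Acsl1 level was not tested.

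Acsl6, a synthetase of brain and red cell precursors that favours docosahexaenoic acid, had 0 counts in all 8 libraries (chr11:54303798-54364756, plus strand, ENSMUSG00000020333.17). With 3 counts over a group as the limit, this allows up to 0.0363 CPM in RGX-104 and 0.0381 CPM in DMSO, for counting error of independent reads only. As 1 apparent molecule stands for 2.90 to 5.48 CPM in a library, transcripts well above that limit could have been missed. The erythroid markers Alas2, Klf1 and Slc4a1 were at 0 in all libraries, and the summed level of the erythroid list was 5.74 to 22.2 CPM in RGX-104 and 5.26 to 54.6 CPM in DMSO.

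Within the family the order of mean levels in RGX-104 was Acsl5, Acsl3, Acsl4, Acsl1, and in DMSO it was Acsl5, Acsl4, Acsl3, Acsl1. In RGX-104 each neighbouring pair overlapped in its range over libraries. In DMSO neighbours overlapped too, but Acsl5 (38.6 to 66.4 CPM) lay wholly above Acsl3 (5.24 to 22.9 CPM). Acsl3 took 31.5% ± 10.8 of the summed family reads in RGX-104 (18.7% to 41.4%) and 13.9% ± 6.33 in DMSO (5.37% to 19.96%). The share of Acsl4 was 20.7% ± 9.91 in RGX-104 and 34.5% ± 16.9 in DMSO, with overlap, and that of Acsl5 was 42.9% ± 13.8 in RGX-104 and 45.8% ± 9.29 in DMSO. The share of Acsl1 was 4.85% ± 2.93 in RGX-104 and 5.80% ± 5.12 in DMSO. Shares sum to the whole, so that a higher share of 1 member lowers the others.

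The most abundant member changed from library to library. It was Acsl3 in RGX-104 replicates 5 and 7, Acsl5 in RGX-104 replicates 6 and 8, Acsl4 in DMSO replicates 1 and 2 and Acsl5 in DMSO replicates 3 and 4. The summed level was 150 ± 19.8 CPM in RGX-104 (124 to 171) and 109 ± 18.02 CPM in DMSO (91.4 to 131), with overlap between the groups.

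**Figure D3:**
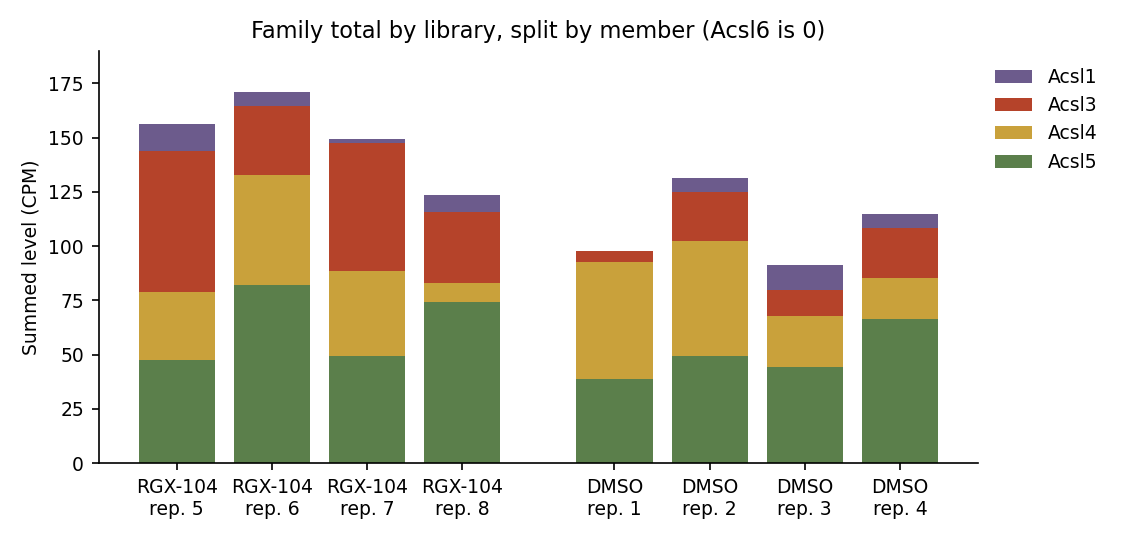
Summed level in CPM (y axis) of the family in each library, RGX-104 replicates 5 to 8 at the left and DMSO replicates 1 to 4 at the right, split by member. The Acsl3 segment is 18.7% to 41.4% of the bar in RGX-104 and 5.37% to 19.96% in DMSO, and the leading member differs between libraries of 1 group.

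Each member was compared by its transcript with the longest coding sequence, and these transcripts differ in sequence at their 3′ ends. Over aligned coding bases the closest pairs were Acsl1 with Acsl6 (66.3% identical) and Acsl3 with Acsl4 (66.2%), and the most distant was Acsl1 with Acsl3 (51.9%). In the last 500 bases of each member's transcript, none of the 451 stretches of 50 bases occurred in a transcript of another gene. No stretch of 50 bases was shared between any pair of these transcripts. The 3′ ends of the members' other annotated transcripts were not checked. Coding lengths were 2052 bases for Acsl5, 2100 for Acsl1, 2136 for Acsl4, 2163 for Acsl3 and 2169 for Acsl6, stop codon included.

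**Figure D4:**
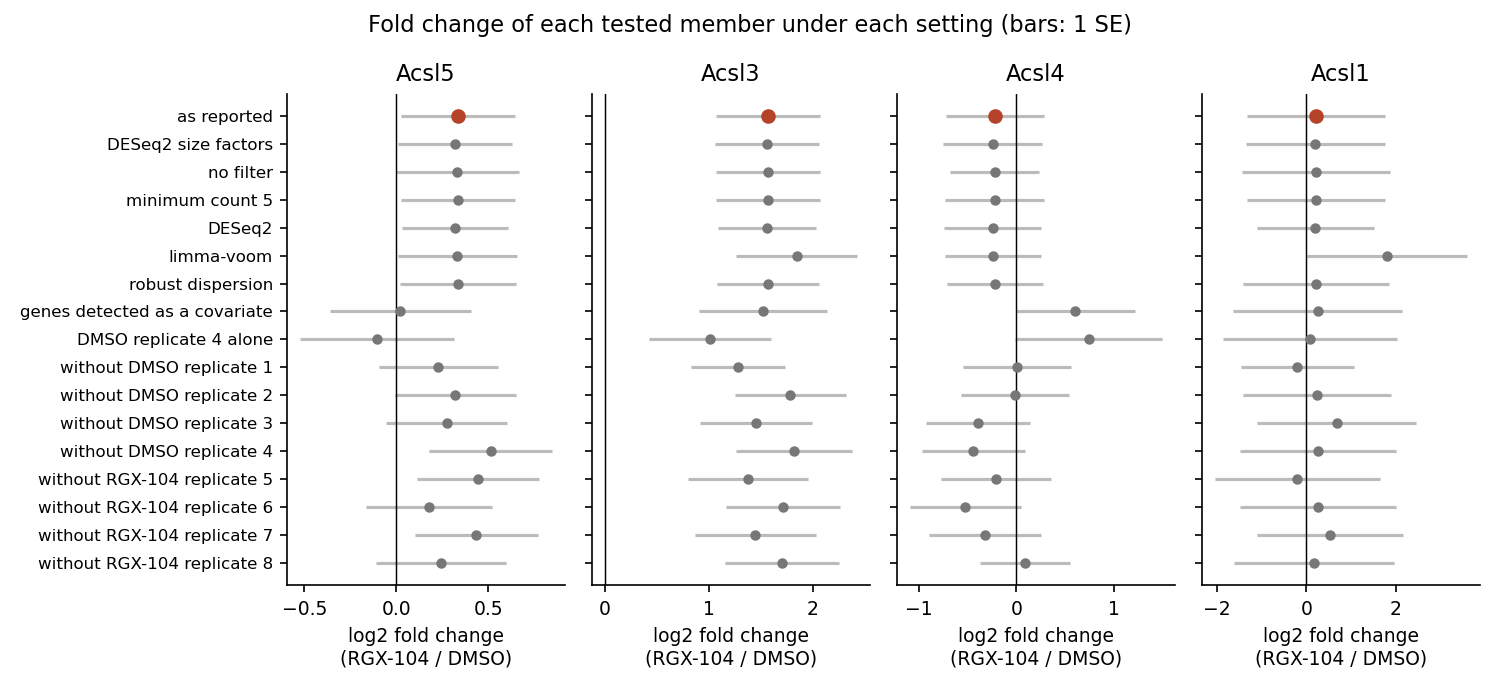
Log2 fold change of RGX-104 over DMSO (x axis, bars 1 SE) of Acsl5, Acsl3, Acsl4 and Acsl1 under each setting (rows), with the value as reported in red. Acsl3 stays above 0 in all settings, at 1.01 to 1.84, while Acsl1, Acsl4 and Acsl5 have points on both sides of 0.

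The fold change of Acsl3 was 1.01 ± 0.59 (SE) on the log2 scale against DMSO replicate 4 alone, and 1.52 ± 0.61 with a covariate for genes detected. DMSO replicate 4 had the most genes detected of the DMSO group and also its highest Acsl3 level. Leaving out 1 library at a time gave 1.28 to 1.82, with the lowest value without DMSO replicate 1. The choice of members fixed the direction of this contrast, so its constancy over these settings is no sign of stability.

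The genes whose level ran most like that of each member over the 8 libraries were looked up among 7706 genes with a mean of at least 10 CPM. For Acsl3 they were Ccnd2 (Pearson r = 0.98), a D-type cyclin at 1871 CPM in RGX-104 and 1543 CPM in DMSO, Prkci (r = 0.96), an atypical protein kinase C at 21.1 CPM in RGX-104 and 6.55 CPM in DMSO, and Lpcat3 (r = 0.96). For Acsl4 they were Slc12a4 (r = 0.95), Fgf13 (r = 0.93) and Rbpj (r = 0.93), and for Acsl5 Zfp335 (r = 0.93), Rpl32 (r = 0.93) and Spns1 (r = 0.92). These are the highest of 7706 values over 8 points that share depth and group, and they are given as a description. With a pseudocount of 5, Ccnd2 and Prkci were again among the 3 for Acsl3 and Lpcat3 was not. With Spearman's rho, Ccnd2 and Lpcat3 were and Prkci was not, while 0 of the 3 genes for Acsl4 and 1 of the 3 for Acsl5 were among the top 3 again. Equal rho were ordered by gene name. All 3 for Acsl3 had a rho of 0.976, and ranks 2 and 3 for Acsl4 and for Acsl5 had 0.952. A gene left out of the 3 may thus have had an equal rho.

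The enzymes around the family were counted in lists of genes that make, use or split acyl-CoA. For all genes tested the median log2 fold change was 0.01, and edgeR called 0.11% of them (0.0996% higher, 0.00996% lower). At that share most lists of this size would hold no called gene, so nothing is read from a count of 0. Among 20 other acyl-CoA synthetases, 10 were tested and 0 were called in either direction, with 3 above 0, 7 below and a median of -0.39. The most abundant was Acss1, the acetate-activating enzyme of mitochondria, at 80.0 ± 21.2 CPM in RGX-104 and 82.8 ± 27.1 CPM in DMSO. Its cytosolic counterpart Acss2 was at 37.1 ± 12.99 CPM in RGX-104 and 43.8 ± 11.8 CPM in DMSO, and Slc27a4, a fatty acid transport protein with synthetase activity, at 29.2 ± 8.54 CPM in RGX-104 and 23.6 ± 12.003 CPM in DMSO. Of 16 thioesterases, which undo the reaction, 6 were tested and 0 called, with a median of -0.28. The most abundant of them, Acot2, was at 33.2 ± 7.21 CPM in RGX-104 and 40.7 ± 10.2 CPM in DMSO.

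Of the genes that bind or carry acyl-CoA, values of the 3 most abundant are given. Dbi, the acyl-CoA binding protein that carries the products of the synthetases, was at 192 ± 24.9 CPM in RGX-104 and 167 ± 34.4 CPM in DMSO. Acbd3, which also has an acyl-CoA binding domain, was at 141 ± 5.44 CPM in RGX-104 and 123 ± 26.2 CPM in DMSO. Acbd6, with the same domain, was at 49.5 ± 23.8 CPM in RGX-104 and 59.2 ± 20.1 CPM in DMSO. All 3 overlapped between the groups and were not called.

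Genes that use acyl-CoA were counted next. Of 26 genes of glycerolipid synthesis and sterol esterification, 17 were tested and 0 called, with 8 above 0, 9 below and a median of -0.04. Cds2, which makes the phospholipid intermediate CDP-diacylglycerol, was the most abundant at 240 ± 36.8 CPM in RGX-104 and 244 ± 69.2 CPM in DMSO. Of 15 genes of lipid droplets and lipolysis, where Acsl3 acts, 8 were tested and 0 called, with a median of 0.01. Pnpla2, the triglyceride lipase, was at 91.7 ± 31.05 CPM in RGX-104 and 89.2 ± 5.80 CPM in DMSO.

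Of 21 genes of mitochondrial import and beta-oxidation 18 were tested and 0 called, with 11 above 0, 7 below and a median of 0.15. Cpt1a, the entry step that takes acyl-CoA from Acsl1 and Acsl5, was at 43.9 ± 10.4 CPM in RGX-104 and 44.4 ± 12.2 CPM in DMSO. Acads, the short-chain acyl-CoA dehydrogenase, was at 41.9 ± 7.91 CPM in RGX-104 and 19.8 ± 9.16 CPM in DMSO, with no overlap, and did not pass (1.06 ± 0.46 on the log2 scale, edgeR adjusted p = 1.00). Of 14 genes of peroxisomal oxidation 11 were tested and 0 called, with a median of 0.04.

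Fatty acid synthesis and desaturation held 25 genes, of which 16 were tested, 2 were called higher and 0 lower, with a median of 0.27. The called genes were Scd2, a stearoyl-CoA desaturase that acts on the products of the synthetases, and Fasn, which makes palmitate, a substrate of the family. Scd2 was at 585 ± 34.0 CPM in RGX-104 and 15.4 ± 7.32 CPM in DMSO (log2 fold change 5.23 ± 0.27, edgeR adjusted p = 7.29e-10). Fasn was at 244 ± 20.6 CPM in RGX-104 and 82.9 ± 17.9 CPM in DMSO (1.54 ± 0.19, adjusted p = 0.000174), the log2 size of Acsl3 with a smaller SE. Both kept their calls in every setting run. Acaca, acetyl-CoA carboxylase, was at 43.7 ± 6.59 CPM in RGX-104 and 13.3 ± 8.76 CPM in DMSO, close to the levels of Acsl3, and like it did not overlap and was not called (1.70 ± 0.53, adjusted p = 1.00). Scd4, chosen after its values were seen, was at 7.80 ± 3.31 CPM in RGX-104 and had 0 counts in all DMSO libraries. It was not called by edgeR (adjusted p = 0.872) and was called by DESeq2 (adjusted p = 0.000376). Reads of the Scd paralogs may have been split between them.

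The remaining lists bear on Acsl4 and Acsl1. Of 10 genes of phospholipid remodelling 7 were tested and 0 called, with 5 above 0, 2 below and a median of 0.24. Of 14 ferroptosis partners of Acsl4, 8 were tested and 0 called, with a median of 0.10. The iron store subunit Fth1 was at 405 ± 20.5 CPM in RGX-104 and 372 ± 34.5 CPM in DMSO, and Slc3a2, a subunit of the cystine importer, at 165 ± 13.6 CPM in RGX-104 and 197 ± 18.3 CPM in DMSO. A list of 18 genes held PPAR targets, to which Acsl1 belongs in other tissues, and the receptors Ppara, Ppard and Pparg. Of these 18 genes 7 were tested, all of them targets, and 0 called, with 5 above 0 and a median of 0.25. In the lists counted here the genes called by edgeR were Scd2 and Fasn.

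**Figure D5:**
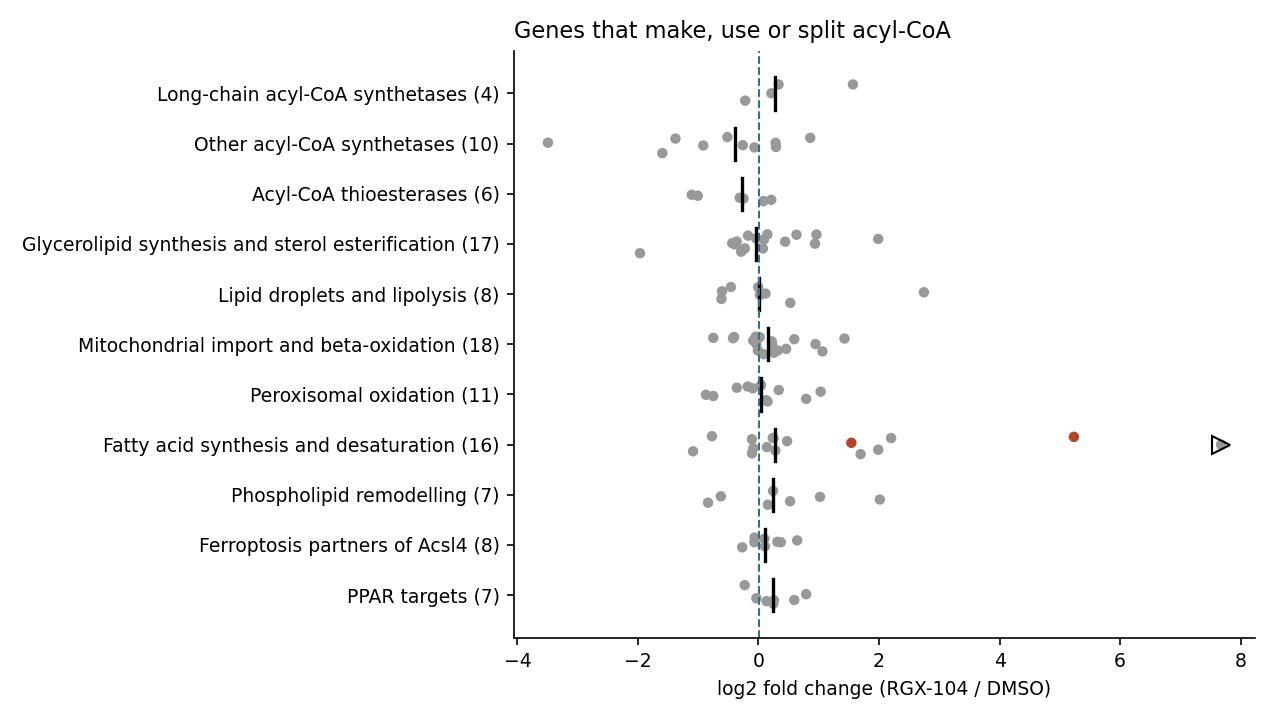
Log2 fold change of RGX-104 over DMSO (x axis) of each tested gene in the family and in each list counted in the text, called genes in red, with a vertical bar at each median and a dashed line at the median of all genes (0.01). The open triangle is Scd4, at 0 in DMSO and plotted at its lower bound against 3 counts. The genes called by edgeR are Fasn and Scd2.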

How the data were processed

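The authors deposited raw whole-number counts per gene symbol, 1 column per library, and they are not normalized, per the file headers. The libraries were made with a QuantSeq 3′ kit, per the labels' protocols. The submitters' processing notes name the build GRCm38 and the tools STAR 2.7.8a, DESeq2 1.4 and R 4.1.0. Not given in the sources used here are the counter, the annotation, the strand setting and whether molecular identifiers were used. The 2379 rows whose symbol carries an added number (among them copies of Acsl3 and Utp14b at 0) were left as deposited.

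Counts were tested across the whole table with edgeR 4.0.16 in R 4.3.3 (quasi-likelihood, TMM, filterByExpr, minimum count 10), on 10037 of 14589 genes with a count. P-values were adjusted by Benjamini-Hochberg and called under 0.05. Where the text gives an adjusted p, it is edgeR's unless another tool is named. The SE was taken from the quasi-likelihood F, as the size of the log2 change over its root. The code was tested on simulated counts. Alternatives used DESeq2 1.42.0, limma 3.58.1 (voom), other filters and size factors, a robust dispersion, a covariate, DMSO replicate 4 alone and each library left out.

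CPM divides by the library total, 16196217 to 28287445 counts. No label ties libraries to separate animals or cultures, so a p-value here reflects only library-to-library spread, possibly technical. Apparent molecules per library were set so that Poisson sampling yields the zeros seen in genes of 2 to 20 CPM in the other libraries. Limits for a count of 0 cover counting error only. Gene models are GENCODE vM21 (GRCm38), and promoter windows are RefSeq's, found for 5 of 5 members. Alignments of coding bases used Biopython 1.88.

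The members, gene lists and alternatives were chosen with earlier results of these data known. The genes named are the 5 members, LXR targets for scale, T cell genes, overlapping neighbours and, per list, called genes, the 3 of highest mean level, and up to 2 of at least 10 CPM without overlap between groups, of which a selection is printed. Some genes that the rule names, and the counts of the list on binding and uptake, are not reported here. For likeness the 3 highest Pearson r of log2(CPM + 1) are named.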

Additional observations from a re-analysis of the deposited data

Results flagged for a closer look

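In 124 groups of 4 libraries (members, named genes and marker sums), 7 had 1 library well apart from its 3 fellows. By chance about 1 in 20 groups would, or 6.2, if values were independent and normally distributed. Marker sums at or near 0 in most libraries do not meet that condition. None was a synthetase. Lipa, the lysosomal lipase, stood at 90.4 CPM in RGX-104 replicate 8, against 36.7 to 44.8 CPM in the other RGX-104 libraries. Activated T cell markers summed to 112 CPM in RGX-104 replicate 7, against 43.1 to 50.5 CPM, and macrophage and monocyte markers to 126 CPM in RGX-104 replicate 8, against 164 to 169 CPM. Platelet markers summed to 6.93 CPM in RGX-104 replicate 5, against 0 to 0.238 CPM. In DMSO replicate 4 neutrophil markers summed to 35.8 CPM, against 0 in the other DMSO libraries. In the same library dendritic cell markers summed to 7.11 CPM, against 0 to 0.0411 CPM, and platelet markers to 2.94 CPM, against 0 to 0.103 CPM.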

How the results depend on the processing

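The count of synthetases called was 0 in every alternative run. Over all genes, 10 were called higher and 1 lower. DESeq2 called 20 and 13, limma-voom 3 lower, the fit with no filter 4 lower, and the covariate of genes detected left 6 higher. Leaving out 1 library gave 7 to 11 higher and 1 to 3 lower. The log2 fold change of Acsl1 was 1.81 with limma-voom. Against DMSO replicate 4 alone it was 1.01 for Acsl3, 0.74 for Acsl4 and -0.10 for Acsl5, where a group of 1 library is assumed to vary like the other. With the covariate it was 0.61 for Acsl4 and 0.023 for Acsl5. Leaving out 1 library gave -0.20 to 0.69 for Acsl1, 1.28 to 1.82 for Acsl3, -0.52 to 0.09 for Acsl4 and 0.18 to 0.51 for Acsl5. List medians moved to 0.57 (thioesterases), 0.37 (glycerolipid synthesis) and 0.78 (fatty acid synthesis) against DMSO replicate 4 alone. The causes were not tested. Mean shares of Acsl3 in the family were 28.2% to 35.8% in RGX-104 and 11.9% to 16.8% in DMSO without 1 library. No paired analysis was possible because the library numbers, 1 to 8, are unique across the groups. Few molecules per library limit all members, Acsl1 and Acsl6 most.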
